A study of Homo sapiens with 16 samples.

Results

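The mitochondrial protein import machinery was followed in breast cancer cells given MitoQ. The set held 36 genes, chosen by symbol from the 35106 gene rows of a count table: the translocases of the outer and inner membrane, their partner chaperones, the sorting and assembly machinery and the processing peptidases. RNA was sequenced from 5 libraries of MDA-MB-231 cells given 500 nM MitoQ for 48 h, 5 libraries of MDA-MB-231 controls (both at passage 25), 3 libraries of SKBR3 cells given the same dose for the same time and 3 libraries of SKBR3 controls (both at passage 10). The first line lacks hormone receptors and ERBB2 amplification and has mesenchymal features; the second carries an amplified ERBB2 gene. MitoQ is a ubiquinone joined to a triphenylphosphonium cation, which draws it into mitochondria. The labels do not say what the controls received, and each line stands for itself alone as a model.

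Nearly all mitochondrial proteins are made in the cytosol and enter through this machinery. Precursors are recognised by receptors of the TOM complex, cross the outer membrane through its channel and are then sorted. Those with an N-terminal presequence pass the TIM23 channel, pulled in by a motor built on the matrix Hsp70, and lose the presequence to a processing peptidase. Carrier proteins are escorted by small TIM chaperones to the TIM22 translocase, barrel proteins are inserted by the SAM complex, and small cysteine-rich proteins are trapped by the MIA disulfide relay.

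All 36 members matched the annotation by gene ID. Library totals ran from 19844695 to 25904852 estimated counts in MDA-MB-231 MitoQ libraries and from 23612986 to 29294865 in MDA-MB-231 controls. They ran from 19157771 to 27739692 in SKBR3 MitoQ libraries and from 14723152 to 27841144 in SKBR3 controls. The lines fitted their labels. The 8 marker genes of SKBR3 summed to 130.1 to 146 counts per 1000000 (CPM) in MDA-MB-231 MitoQ libraries and 109 to 124 CPM in MDA-MB-231 controls, against 7183 to 7717 CPM in SKBR3 MitoQ libraries and 6533 to 7550.2 CPM in SKBR3 controls. The 8 markers of MDA-MB-231, of which TWIST1 was at 0 in every library, summed to 7451 to 8432 CPM in MDA-MB-231 MitoQ libraries and 7277 to 7817 CPM in its controls, against 41.6 to 47.9 CPM in SKBR3 MitoQ libraries and 21.1 to 23.3 CPM in SKBR3 controls. In both lines the other line's markers were thus higher with MitoQ without overlap, and their part in the results was not tested. On the second principal component the MDA-MB-231 MitoQ replicate 2 lay apart from its group. The SKBR3 controls were scattered. On the first component control 3 lay at -7.27, against -28.0 and -30.8 for controls 1 and 2. On the second, controls 1 and 2 lay at 29.2 and -29.5, with control 3 between them at 4.82. Levels below are normalised CPM. Each change is a log2 fold change, MitoQ over control, with adjusted p-values over all genes tested. Its SE was derived from edgeR's F statistic, as the absolute change divided by the square root of F. The words "rose" or "fell" are used where the adjusted p was under 0.05. In bulk libraries, fewer cells with a transcript and less of it per cell cannot be told apart.

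Promoter stretches of 6 members are printed as examples. TOMM20, TIMM23 and TIMM17A were lower with MitoQ in both lines. TOMM7 and TOMM40 were among those whose change differed between the lines, and IMMP2L had the largest rise in MDA-MB-231. TOMM40L, TIMM21, TIMM10 and TOMM22, with larger falls in MDA-MB-231, and PAM16, with a larger difference between the lines, are not printed. Their stretches, limited in the same way, held no whole match to the motifs below. The printed stretches thus do not show how often members hold a match. The RefSeq sequences (GRCh38.p14) run 5′ to 3′ in the direction of the gene and are limited to the bases upstream of the start that lie in no annotated exon. Capitals mark whole matches to the motifs given after them.
TOMM20, chr1:235128937-235129087, minus strand: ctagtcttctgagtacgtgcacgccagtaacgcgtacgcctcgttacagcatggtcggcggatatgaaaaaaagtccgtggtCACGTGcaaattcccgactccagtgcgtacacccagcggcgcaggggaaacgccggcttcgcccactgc
TIMM23, chr10:45972239-45972448, plus strand: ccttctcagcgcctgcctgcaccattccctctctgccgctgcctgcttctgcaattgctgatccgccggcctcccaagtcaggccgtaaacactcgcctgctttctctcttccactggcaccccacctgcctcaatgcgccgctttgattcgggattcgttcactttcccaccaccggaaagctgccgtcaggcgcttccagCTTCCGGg
TIMM17A, chr1:201955253-201955490, plus strand: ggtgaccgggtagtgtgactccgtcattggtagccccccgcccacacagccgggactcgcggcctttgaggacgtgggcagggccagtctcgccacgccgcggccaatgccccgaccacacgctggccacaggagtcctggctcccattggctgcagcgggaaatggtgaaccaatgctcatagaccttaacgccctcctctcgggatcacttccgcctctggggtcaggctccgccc
TOMM7, chr7:22822853-22823099, minus strand: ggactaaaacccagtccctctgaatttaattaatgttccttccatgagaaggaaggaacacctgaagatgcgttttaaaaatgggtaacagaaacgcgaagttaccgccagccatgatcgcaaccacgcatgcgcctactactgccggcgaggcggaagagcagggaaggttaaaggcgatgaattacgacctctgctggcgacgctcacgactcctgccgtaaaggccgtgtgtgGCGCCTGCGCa
TOMM40, chr19:44891004-44891219, plus strand: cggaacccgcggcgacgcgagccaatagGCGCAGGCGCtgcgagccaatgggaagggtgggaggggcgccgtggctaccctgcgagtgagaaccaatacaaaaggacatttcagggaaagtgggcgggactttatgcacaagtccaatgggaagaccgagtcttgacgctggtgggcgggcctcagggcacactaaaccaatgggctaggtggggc
IMMP2L, chr7:111562518-111562742, minus strand: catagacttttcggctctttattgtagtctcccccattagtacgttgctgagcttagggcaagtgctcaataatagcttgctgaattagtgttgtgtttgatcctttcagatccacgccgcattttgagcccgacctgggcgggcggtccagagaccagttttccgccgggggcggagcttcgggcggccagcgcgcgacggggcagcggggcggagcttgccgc

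Motifs were searched on both strands in the 250 bases upstream of the start, for the 33 members with a RefSeq promoter and for 15843 promoters of protein-coding genes. The ETS core CCGGAAG, read by the GABP factor (also called nuclear respiratory factor 2), was in 10 members, 30.3%, against 11.8% of coding promoters. A form of the nuclear respiratory factor 1 site, GCGC and TGCGC with any 1 base between, was in 7 members, 21.2%, against 7.65%. The YY1 letters AAGATGGC were in 2 members against 1.39% of coding promoters. The ATF4 element TGATGNAA was in 2 members against 2.21%, and the E-box CACGTG was in 1 member, TOMM20, against 7.84%. Of the stretches above, TOMM20 holds the E-box, TOMM7 and TOMM40 a factor 1 match and TIMM23 an ETS match; the factor 1 and ETS matches of TOMM20 end past the bases shown. TIMM17A and IMMP2L had none of these letters. The matches describe letters only, and no test was made of them.

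The coordinates of the genes whose values are followed most closely are those of GENCODE release 29 on GRCh38, each a whole protein-coding gene with its exons and introns. Of TOM they are TOMM22 (ENSG00000100216) at chr22:38681948-38685421, plus strand, TOMM40L (ENSG00000158882) at chr1:161225939-161230744, plus strand and TOMM6 (ENSG00000214736) at chr6:41787662-41789898, plus strand. Of the channel and motor they are TIMM17A (ENSG00000134375) at chr1:201955491-201970661, plus strand, TIMM17B (ENSG00000126768) at chrX:48893447-48898143, minus strand, TIMM21 (ENSG00000075336) at chr18:74148511-74160530, plus strand and TIMM44 (ENSG00000104980) at chr19:7926718-7943920, minus strand. Of the small TIMs and peptidases they are TIMM10 (ENSG00000134809) at chr11:57528463-57530803, minus strand, TIMM8B (ENSG00000150779) at chr11:112084800-112086798, minus strand, IMMP1L (ENSG00000148950) at chr11:31432401-31509645, minus strand and IMMP2L (ENSG00000184903) at chr7:110663051-111562517, minus strand.

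The first comparison asked what MitoQ did to the import genes of MDA-MB-231 cells. Most fell: of 36 members tested, 20 were lower and 5 higher, and 11 did not pass the test. Among all 15304 genes tested 57.5% passed, 27.6% lower and 29.9% higher, so the members' share of lower calls, 55.6%, was above the background and their share of higher calls, 13.9%, below it. The median change was -0.27 on the log2 scale for the members and 0.012 for all genes. The MitoQ and control libraries did not overlap for 19 lower and 3 higher members, against 21.1% and 22.6% of all genes. Summed over the 36 genes the level was 1932 to 2030.3 CPM in MitoQ libraries and 2214 to 2379 CPM in controls. The mRNAs encoded in mitochondrial DNA made up 1.11% ± 0.134 of counts in MitoQ libraries and 3.31% ± 0.233 in controls (SD, n = 5 each). With those genes left out before scaling, 20 members were lower and 5 higher; without MitoQ replicate 2 they were 20 and 6.

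**Figure D1:**
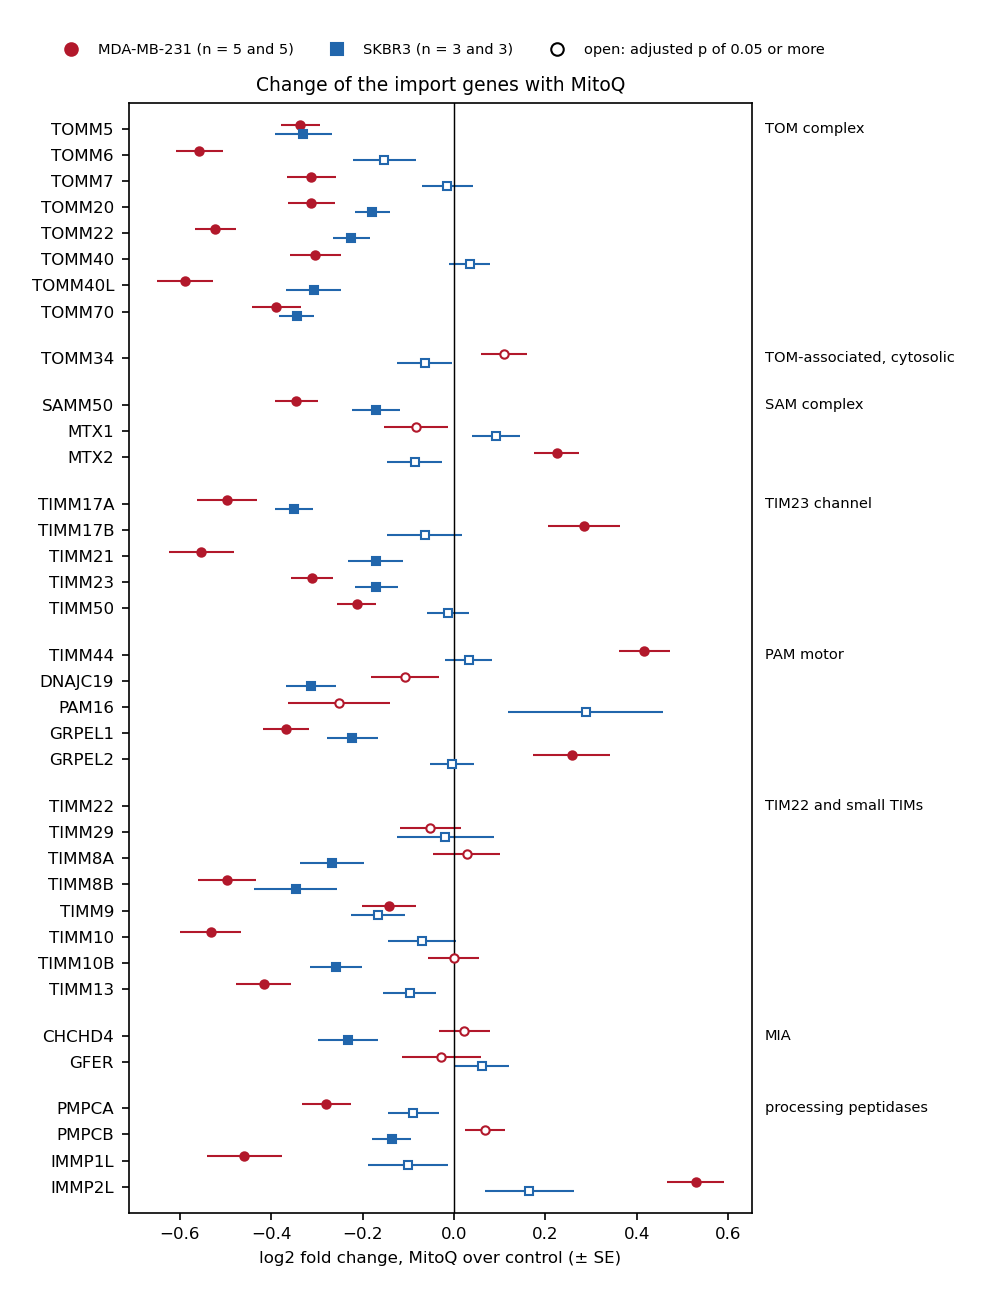
Log2 fold change of each member, MitoQ over control, with its SE, in MDA-MB-231 (red circles) and SKBR3 (blue squares), grouped by complex; filled symbols passed an adjusted p of 0.05, and TIMM22 is not drawn. All 8 TOM members lie left of 0 in MDA-MB-231, while IMMP2L at 0.53 and TIMM44 at 0.42 lie farthest right.

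In the TOM complex all 8 members fell in MDA-MB-231, by 1.23-fold to 1.5-fold. The receptor subunit TOMM22 stood at 68.5, 63.7, 66.8, 69.2 and 69.8 CPM in the MitoQ libraries, against 98.7, 93.0, 97.5, 93.7 and 103 CPM in the control libraries. Every MitoQ library lay below every control, a change of -0.52 ± 0.045 with an adjusted p of 9.41e-09. TOMM40L, a paralogue of the channel protein, had 17.3, 18.5, 16.8, 19 and 16.6 CPM in the MitoQ libraries, against 26.3, 28.0, 28.1, 24.8 and 25.6 CPM in the control libraries. The groups were apart again, with -0.59 ± 0.061 and an adjusted p of 1.39e-07, the largest fall among the members. TOMM6, a small subunit that steadies the complex, had 142, 132, 145, 150.2 and 156 CPM in the MitoQ libraries, against 222, 206, 224, 195 and 219 CPM in the control libraries. Its groups did not overlap, and it changed by -0.56 ± 0.052 with an adjusted p of 2.80e-08. TOMM6 is uncertain, since every 31-base stretch of its transcripts also occurs in AL365205.1, a gene annotated across it; that gene held 5.12% to 5.83% of the pair's counts in MitoQ libraries and 3.0% to 4.70% in controls. The other members fell less: TOMM70, the receptor for carrier precursors, by 0.39 on the log2 scale, the small subunit TOMM5 by 0.34, the small subunit TOMM7 and the presequence receptor TOMM20 by 0.31 each, and the channel TOMM40 by 0.30. TOMM40 shares 24.4% of its stretches with other genes. TOMM34, a cytosolic co-chaperone of import and not a part of the complex, averaged 125 ± 7.52 CPM with MitoQ and 116 ± 5.81 CPM in controls (SD, n = 5 each), and its change of 0.11 had an adjusted p of 0.0695.

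The SAM complex was split. SAMM50, its barrel core, fell by 0.34 on the log2 scale (adjusted p 3.59e-06), and MTX2, a metaxin on the cytosolic face, rose by 0.22 (adjusted p 0.000703), with all MitoQ libraries above all controls. Its partner MTX1 had a change of -0.083 with an adjusted p of 0.322, and 35.5% of its stretches occur elsewhere, so its count is uncertain.

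Of the TIM23 channel 4 members fell and 1 rose. TIMM21, which links the channel to TOM, had 11.9, 10.7, 10.5, 12.8 and 12.3 CPM in the MitoQ libraries, against 17.4, 16.5, 16.8, 16.4 and 18.5 CPM in the control libraries. No MitoQ library reached the lowest control, and the change was -0.55 ± 0.071 with an adjusted p of 1.94e-06. TIMM17A, a channel subunit, had 59.1, 59.1, 61.4, 55.0 and 48.0 CPM in the MitoQ libraries, against 72.9, 77.8, 82.6, 76.7 and 88.4 CPM in the control libraries. The groups were apart, at -0.50 ± 0.065 and an adjusted p of 2.74e-06. TIMM17B, its X-linked paralogue, went the other way with 29.5, 32.5, 34.6, 35.7 and 40.3 CPM in the MitoQ libraries, against 32.0, 27.7, 28.3, 24.9 and 28.8 CPM in the control libraries. Its groups overlapped in part, and it rose by 0.28 ± 0.078 with an adjusted p of 0.00443. The pore subunit TIMM23 fell by 0.31 and the receptor TIMM50 by 0.21 on the log2 scale. TIMM23 shares 27.8% of its stretches with the near-copy TIMM23B, which held 19.5% to 22.9% of the pair's counts in MitoQ libraries and 15% to 18.8% in controls, so its count is uncertain. In SKBR3 TIMM23B held 26.6% to 30.8% with MitoQ and 27.1% to 29.9% in controls.

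**Figure D2:**
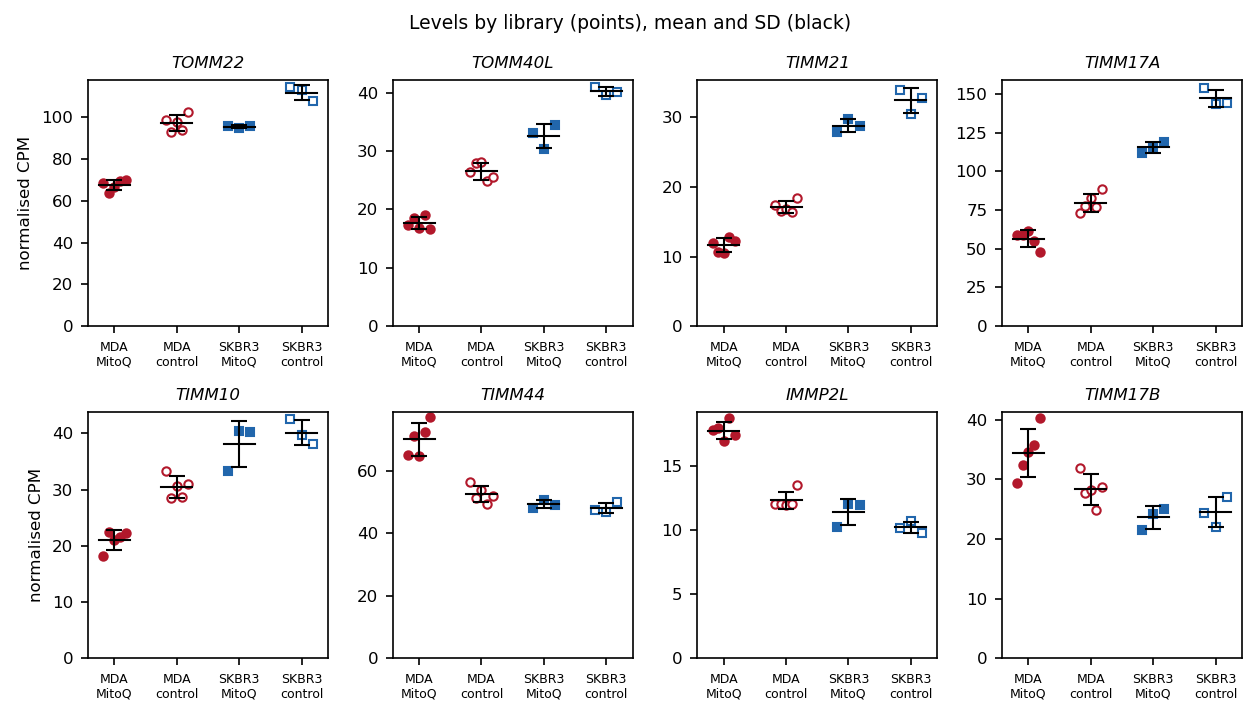
Normalised CPM of 8 members in each library (points) with the mean and SD (black), MitoQ left of control in each line; filled points are MitoQ libraries and every axis starts at 0. TOMM22, TOMM40L, TIMM21, TIMM17A and TIMM10 lie lower with MitoQ in MDA-MB-231, and TIMM44 and IMMP2L higher without overlap.

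In the import motor 2 members rose, 1 fell and 2 did not pass. TIMM44, which tethers the matrix Hsp70 to the channel, had 64.9, 71.0, 64.6, 72.2 and 77.1 CPM with MitoQ and 56.2, 51.1, 53.6, 49.4 and 51.7 CPM in controls. All MitoQ libraries were above all controls, at 0.42 ± 0.055 and an adjusted p of 2.88e-06. The nucleotide exchange factors of the motor parted: GRPEL1 fell by 0.37 on the log2 scale without overlap, and GRPEL2 rose by 0.26 with an adjusted p of 0.0156 and overlapping groups. The J-protein DNAJC19 had a change of -0.11 (adjusted p 0.230) and its regulator PAM16 one of -0.25 (adjusted p 0.0632). PAM16 shares 21.3% of its stretches, mostly with the read-through gene CORO7-PAM16, and is uncertain.

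Among TIM22 and the small TIM chaperones 4 of 8 fell and the other 4 did not pass. TIMM10, which with TIMM9 forms the chaperone for carriers, had 18.1, 22.4, 21.1, 21.5 and 22.2 CPM in the MitoQ libraries, against 33.4, 28.5, 30.6, 28.7 and 31.1 CPM in the control libraries. The groups did not meet, at -0.53 ± 0.067 and an adjusted p of 1.46e-06. TIMM8B had 17.4, 18.4, 18.7, 18.6 and 19.6 CPM in the MitoQ libraries, against 25.5, 24.6, 26.5, 24.7 and 29.5 CPM in the control libraries. Its groups were also apart, at -0.50 ± 0.063 and an adjusted p of 1.60e-06. TIMM13, partner of the TIMM8 proteins, fell by 0.42 and TIMM9 by 0.14 on the log2 scale. The call of TIMM9 had an adjusted p of 0.0477 and was lost without any 1 of 8 libraries, controls 2 to 5 and MitoQ 1, 3, 4 and 5, where the adjusted p was 0.0565 to 0.118. TIMM8B, TIMM13 and TIMM9 are uncertain, with 35%, 26.0% and 24.1% of stretches in other genes, several of them on the opposite strand. TIMM8A (0.028), TIMM10B (-0.00083) and the TIM22 subunit TIMM29 (-0.052) did not pass, with adjusted p-values of 0.775, 0.992 and 0.535. TIMM22, the carrier translocase itself, could not be read: it was listed with 1, 0, 2, 367 and 373 counts in MitoQ libraries, 15, 740, 1, 8 and 22 in controls and 0 in all 6 SKBR3 libraries. Without it the members tested were 35 and the calls were the same in number.

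Neither member of the MIA relay passed: CHCHD4, the oxidoreductase, had a change of 0.023 (adjusted p 0.754), and GFER, which reoxidises it, one of -0.028 (adjusted p 0.806; 23.5% of its stretches occur elsewhere). The peptidases were split. Of the matrix processing peptidase, PMPCA fell by 0.28 on the log2 scale while PMPCB had 0.068 with an adjusted p of 0.197. Of the inner membrane peptidase, IMMP1L had 7.89, 8.30, 8.69, 7.83 and 6.97 CPM in the MitoQ libraries, against 11.9, 9.97, 10.7, 10.5 and 11.5 CPM in the control libraries. It fell by 0.46 ± 0.082 without overlap (adjusted p 9.50e-05). IMMP2L had 17.8, 18, 16.9, 18.8 and 17.5 CPM in the MitoQ libraries, against 12.0, 12.1, 12.0, 12.1 and 13.5 CPM in the control libraries. It rose by 0.53 ± 0.062, 1.44-fold, with an adjusted p of 6.88e-07, the largest rise among the members.

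In SKBR3 cells every import gene that passed the test was lower with MitoQ. Of 35 members tested, 16 fell, 0 rose and 19 did not pass edgeR's test, and 29 of 35 changes were below 0. Of 15026 genes tested 28% passed, 14.1% lower and 13.8% higher, against 45.7% lower and no higher call among the members. At an unadjusted p under 0.05 the members higher were also 0, and DESeq2 and limma voom called 0. The median change was -0.14 for the members and -0.00064 for all genes. Groups did not overlap for 17 lower members, and for 0 higher, against 21.9% and 20.1% of all genes. Summed levels were 1979 to 2072 CPM with MitoQ and 2198 to 2301 CPM in controls, and mitochondrially encoded mRNAs were 5.19% ± 0.0590 of counts with MitoQ and 6.46% ± 0.717 in controls (SD, n = 3 each). With the mitochondrially encoded genes left out, 17 members were lower and 0 higher.

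The largest fall in SKBR3 was that of TIMM17A, which had 112, 115 and 119 CPM in the MitoQ libraries, against 154, 144 and 144 CPM in the control libraries. It fell by 0.35 ± 0.042 (adjusted p 4.24e-05), with all MitoQ libraries below all controls, as for the 7 genes that follow. TIMM8B had 35.1, 41.6 and 42.5 CPM in the MitoQ libraries, against 56.5, 50.3 and 45.5 CPM in the control libraries, a fall of 0.35 ± 0.090 (adjusted p 0.0165). TOMM70 had 122, 117 and 116 CPM in the MitoQ libraries, against 150.01, 151 and 149 CPM in the control libraries, a fall of 0.34 ± 0.038 (adjusted p 2.02e-05). TOMM5 had 34.9, 41.0 and 38.8 CPM in the MitoQ libraries, against 50.2, 47.6 and 46.8 CPM in the control libraries, a fall of 0.33 ± 0.062 (adjusted p 0.00135). Receptor and small TOM subunits thus stood beside a channel subunit among the larger falls. DNAJC19 of the motor had 33.5, 33.1 and 32.3 CPM in the MitoQ libraries, against 42.6, 40.2 and 40.2 CPM in the control libraries, and fell by 0.31 ± 0.054 (adjusted p 0.000750). TOMM40L had 33.0, 30.3 and 34.5 CPM in the MitoQ libraries, against 40.9, 39.5 and 40.2 CPM in the control libraries, and fell by 0.31 ± 0.060 (adjusted p 0.00163). TIMM8A had 17.9, 19.3 and 18.3 CPM in the MitoQ libraries, against 22.8, 23.3 and 21.1 CPM in the control libraries, and fell by 0.27 ± 0.071 (adjusted p 0.0112). The fall of TIMM17A was 1.27-fold. TIMM10B, which associates with TIM22, had 41.9, 47.4 and 45.3 CPM in the MitoQ libraries, against 55.0, 51.4 and 54.5 CPM in the control libraries, and fell by 0.26 ± 0.056 (adjusted p 0.00343).

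The other calls in SKBR3 were falls of 0.23 for CHCHD4, 0.22 for TOMM22, 0.22 for GRPEL1, 0.18 for TOMM20, 0.17 for TIMM21, 0.17 for SAMM50, 0.17 for TIMM23 and 0.14 for PMPCB on the log2 scale. By complex, 5 of 8 TOM members fell, 1 of 3 in SAM, 3 of 5 in the TIM23 channel, 2 of 5 in the motor, 3 of 7 tested in TIM22 and the small TIMs, 1 of 2 in MIA and 1 of 4 peptidases. Members that did not pass in TOM and SAM were TOMM6 (-0.15), TOMM7 (-0.015), TOMM40 (0.034), TOMM34 (-0.064), MTX1 (0.091) and MTX2 (-0.086). In the channel and motor they were TIMM17B (-0.064), TIMM50 (-0.013), TIMM44 (0.032), PAM16 (0.29) and GRPEL2 (-0.0050). Among the small TIMs, MIA and the peptidases they were TIMM9 (-0.17), TIMM10 (-0.070), TIMM13 (-0.10), TIMM29 (-0.019), GFER (0.061), PMPCA (-0.089), IMMP1L (-0.10) and IMMP2L (0.17). The groups of 3 limit this comparison: 8 of the 16 calls (TOMM5, TOMM20, TOMM22, TOMM40L, TOMM70, TIMM17A, DNAJC19 and TIMM10B) held when any 1 library was left out, and without MitoQ replicate 1 the calls numbered 10. TIMM21 (adjusted p 0.0484) lost its call without any 1 library, SAMM50 without any but control 1, PMPCB without control 1 or any MitoQ library, CHCHD4 without control 1 or 2 or MitoQ 1 or 3, TIMM23 without control 1 or MitoQ 1 or 2, TIMM8A without control 2 or MitoQ 1, TIMM8B without control 2 and GRPEL1 without MitoQ 2. Without control replicate 3 the count lower was 15.

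Set beside each other, 11 of 35 members were lower in both lines, 31.4%, against 6.91% of 13785 genes tested in both. They were the TOM members TOMM5, TOMM20, TOMM22, TOMM40L and TOMM70, SAMM50, the channel genes TIMM17A, TIMM21 and TIMM23, GRPEL1 and TIMM8B. Of these, SAMM50, TIMM21, TIMM23, GRPEL1 and TIMM8B lost their SKBR3 call in at least 1 run with a library left out, as above. TIMM23 and TIMM8B also have uncertain counts. Against a 1.2-fold change 0 members were lower in SKBR3. In MDA-MB-231 9 more members fell that did not pass in SKBR3, and 5 fell in SKBR3 that did not pass in MDA-MB-231 (DNAJC19, TIMM8A, TIMM10B, CHCHD4 and PMPCB). The 5 that rose in MDA-MB-231 (MTX2, TIMM17B, TIMM44, GRPEL2 and IMMP2L) did not pass in SKBR3. Across the 35 genes the changes in the lines had a Spearman rank correlation of 0.47, and 0.19 across all genes, given as a description since genes are not independent.

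**Figure D3:**
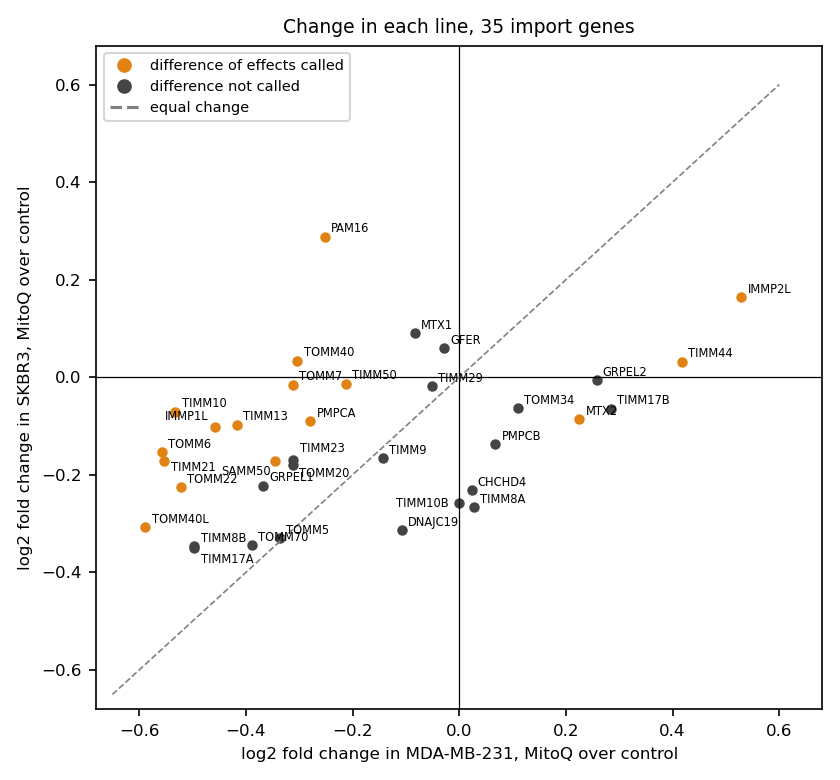
Log2 fold change with MitoQ in MDA-MB-231 (x axis) against SKBR3 (y axis) for the 35 members tested in both lines; orange points passed the test of a difference between the lines and the dashed line marks equal change. Most points lie left of 0 and below 0, and PAM16, TIMM10 and TOMM40 lie well above the dashed line.

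Whether the response differed between the lines was tested with the interaction term over all 16 libraries, MDA-MB-231 minus SKBR3. It passed for 16 of 36 members, 13 lower and 3 higher in MDA-MB-231. Of 17094 genes 34.1% passed, 19.1% lower and 14.9% higher. The split depended on scaling: with plain library totals the members counted 8 lower and 9 higher, and with DESeq2's size factors 12 lower and 6 higher. The median difference of all genes was -0.034 with the scaling used and 0.056 with plain totals. In TOM 5 of 8 members differed, all toward a lower value in MDA-MB-231: TOMM6 (-0.45 ± 0.10), TOMM40 (-0.38 ± 0.086), TOMM22 (-0.34 ± 0.067), TOMM7 (-0.34 ± 0.087) and TOMM40L (-0.33 ± 0.090). TIMM21 (-0.42 ± 0.10), TIMM50 (-0.24 ± 0.067), TIMM13 (-0.36 ± 0.095), IMMP1L (-0.40 ± 0.12), PMPCA (-0.23 ± 0.084) and SAMM50 (-0.22 ± 0.072) also differed downward. With plain totals SAMM50, TIMM50, PAM16, PMPCA and IMMP1L lost their call. Upward differences were those of TIMM44 (0.34 ± 0.087), IMMP2L (0.32 ± 0.11) and MTX2 (0.27 ± 0.080). Without MDA-MB-231 MitoQ replicate 2 the counts were 16 lower and 3 higher, without SKBR3 control replicate 3 they were 13 and 4, and without MDA-MB-231 MitoQ replicate 1 or control replicate 5 there were 5 higher.

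The interaction reached 0.5 on the log2 scale for a pair of genes. TIMM10 differed by -0.50 ± 0.11 (adjusted p 0.000990). Beside its values in MDA-MB-231 above, it had 33.4, 40.5 and 40.3 CPM in the MitoQ libraries, against 42.5, 39.8 and 38.0 CPM in the control libraries of SKBR3. The SKBR3 groups overlapped. PAM16 differed by -0.58 ± 0.22 with an adjusted p of 0.0490. It had 9.17, 9.90, 14.7, 11.0 and 10.9 CPM in the MitoQ libraries, against 15, 13.9, 13.7, 10.9 and 12.5 CPM in the control libraries of MDA-MB-231. In SKBR3 it had 7.56, 8.57 and 7.06 CPM in the MitoQ libraries, against 8.13, 4.53 and 6.25 CPM in the control libraries. Its groups overlapped within each line, neither line's own change passed the test, and its call held only without MDA-MB-231 MitoQ 3, MDA-MB-231 control 4 or SKBR3 control 1. The call of IMMP2L was lost without MDA-MB-231 MitoQ 4 or control 3, SKBR3 MitoQ 1 or control 1 or 2. That of PMPCA was lost without MDA-MB-231 MitoQ 4 or control 1, SKBR3 MitoQ 2 or control 1 or 2, and that of SAMM50 without SKBR3 MitoQ 2 or 3 or control 1 or 2. The other 12 calls held without any 1 library.

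Ratios of counts between partner genes in the same library do not depend on scaling between libraries. Of 12 pairs of paralogues or complex partners, 10 ratios changed in MDA-MB-231, each with no overlap between MitoQ and control and a two-sided exact permutation p of 0.00794, the smallest that 5 against 5 allows (adjusted over 12 pairs, 0.00952). Ratios of other gene pairs were not examined, so this count is not shown to be particular to partners. Among all single genes 22.6% were higher and 21.1% lower without overlap. TIMM8A and TIMM10 each recur among the pairs, which are thus not independent. The ratio of IMMP1L to IMMP2L was 0.444, 0.462, 0.514, 0.418 and 0.400 in MitoQ libraries and 0.986, 0.826, 0.888, 0.867 and 0.854 in controls. That is a difference of -0.98 in the log2 ratio, the largest of the 12. TIMM17A to TIMM17B stood at 2.01, 1.82, 1.78, 1.54 and 1.19 with MitoQ and 2.28, 2.80, 2.92, 3.08 and 3.07 in controls, a difference of -0.78. Every MitoQ ratio lay below every control ratio, a shift toward TIMM17B. GRPEL1 to GRPEL2 stood at 0.833, 0.772, 0.829, 0.922 and 1.02 with MitoQ and 1.36, 1.43, 1.39, 1.32 and 1.2 in controls, a difference of -0.61. TOMM40 to TOMM40L went up, at 7.32, 7.58, 7.70, 7.55 and 9.18 with MitoQ and 6.76, 6.47, 6.27, 6.31 and 6.43 in controls, a difference of 0.28.

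The genes behind the last ratios are given here where not above. GRPEL1 had 51.8, 59.1, 52.0, 49.5 and 53.7 CPM in the MitoQ libraries, against 67.3, 71.4, 69.8, 68.4 and 66.2 CPM in the control libraries of MDA-MB-231. GRPEL2 had 62.2, 76.5, 62.8, 53.6 and 52.4 CPM in the MitoQ libraries, against 49.6, 49.9, 50.3, 51.9 and 55.4 CPM in the control libraries. TOMM40 had 127, 141, 129, 144 and 153 CPM in the MitoQ libraries, against 178, 181, 176, 157 and 165 CPM in the control libraries, and of these 3 genes the GRPEL2 groups overlapped. The other changed pairs were TIMM8A to TIMM8B (0.51), TIMM10 to TIMM10B (-0.53), TIMM9 to TIMM10 (0.39), TIMM8A to TIMM13 (0.44), MTX1 to MTX2 (-0.31) and PMPCA to PMPCB (-0.35). CHCHD4 to GFER (0.051) and PAM16 to DNAJC19 (-0.15) had exact p-values of 0.492 and 0.365. In SKBR3 3 against 3 libraries cannot give a p under 0.1, so no ratio could pass. There, 8 of 12 ratios had no overlap, each with an exact p of 0.1. Other gene pairs were not examined, and among all single genes 20.1% were higher and 21.9% lower without overlap in SKBR3. The direction was that of MDA-MB-231 for 4 of the 8 ratios: TIMM17A to TIMM17B differed by -0.30, IMMP1L to IMMP2L by -0.26, GRPEL1 to GRPEL2 by -0.21 and TOMM40 to TOMM40L by 0.34. The other 4 had the opposite sign to MDA-MB-231: PAM16 to DNAJC19 differed by 0.64, the largest of the 12 in SKBR3, CHCHD4 to GFER by -0.30, MTX1 to MTX2 by 0.19 and TIMM10 to TIMM10B by 0.18. For PAM16 to DNAJC19 and CHCHD4 to GFER the MDA-MB-231 groups overlapped, so no change was shown there to be opposed. The difference between the lines in these ratios was not tested.

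**Figure D4:**
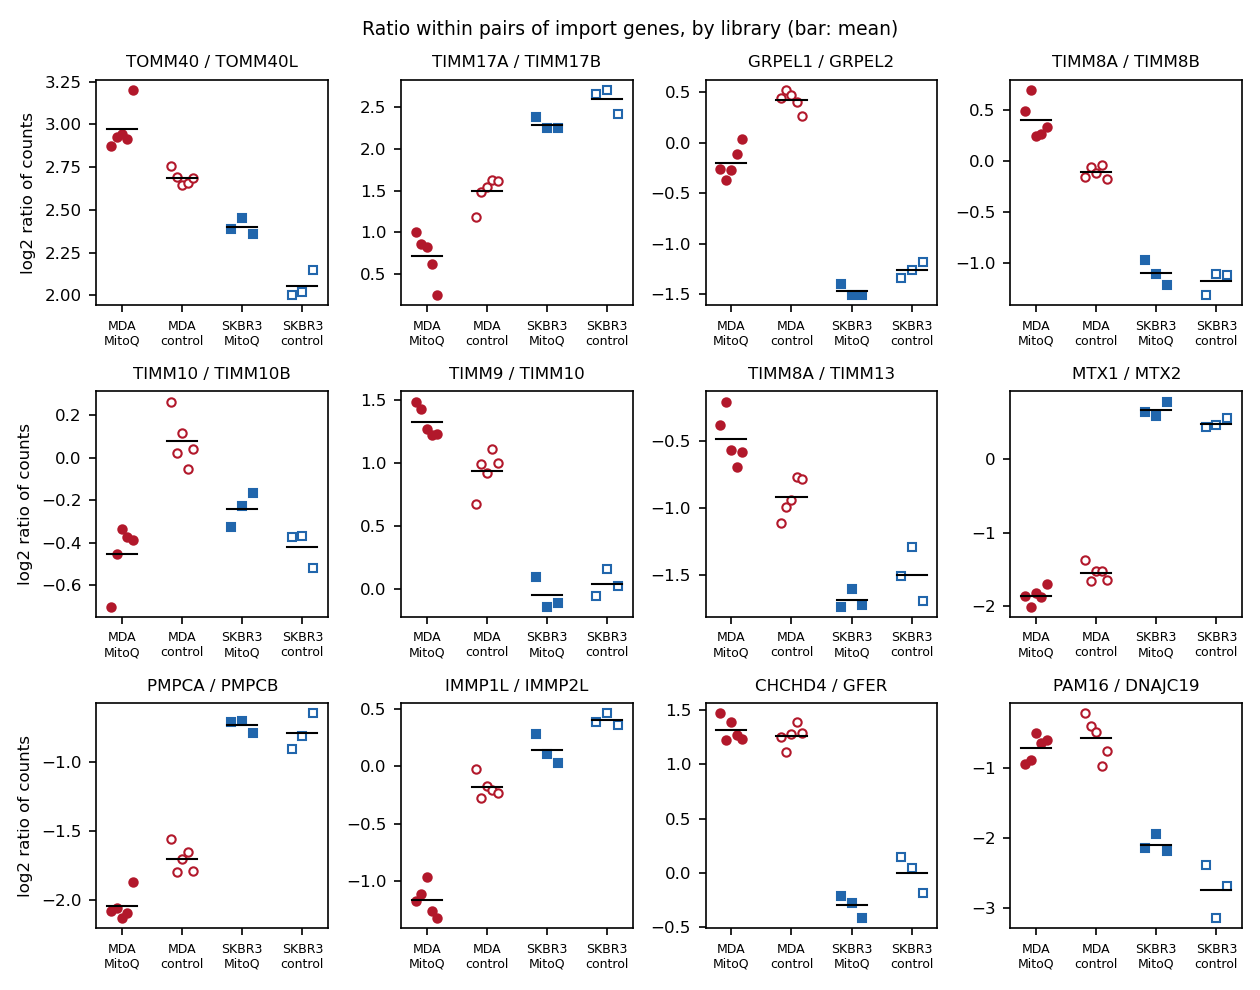
Log2 ratio of the counts of the first to the second gene of 12 pairs in each library, MitoQ (filled) left of control (open) in each line, with a bar at the mean; the axes differ between panels. In MDA-MB-231 the MitoQ and control points are apart in 10 panels, all but CHCHD4 / GFER and PAM16 / DNAJC19.

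The control cells of the lines differed in most import genes. Line and passage cannot be told apart in this comparison. Of 36 members 14 were higher and 17 lower in MDA-MB-231 than in SKBR3, and 5 did not pass; of 16398 genes 86.5% passed, 44.4% higher and 42% lower, so the members' share called lay near the background. Groups did not overlap for 13 members higher and 16 lower, against 42.9% and 40.1% of all genes. Without TIMM22, which could not be read, they were 12 and 16. Per length of the median coding transcript, TOMM6 led in MDA-MB-231 with 341 ± 19.4 CPM per kb (uncertain, as above), then TOMM7 with 161 ± 10.3 and TIMM50 with 141 ± 4.81, each apart from the next. In SKBR3 TOMM7 led with 274 ± 23.3 CPM per kb, and TOMM40 (96.8 ± 6.37), TIMM50 (96.5 ± 4.88), TOMM6 (87.7 ± 8.15) and TIMM17A (87.6 ± 3.31) followed within overlapping spreads (SD, n = 5 for MDA-MB-231 and 3 for SKBR3). The order of genes depends on which coding transcripts are annotated. TIMM50 has 8 with a median of 778 bases, and TOMM20 has 1 of 3387 bases.

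**Figure D5:**
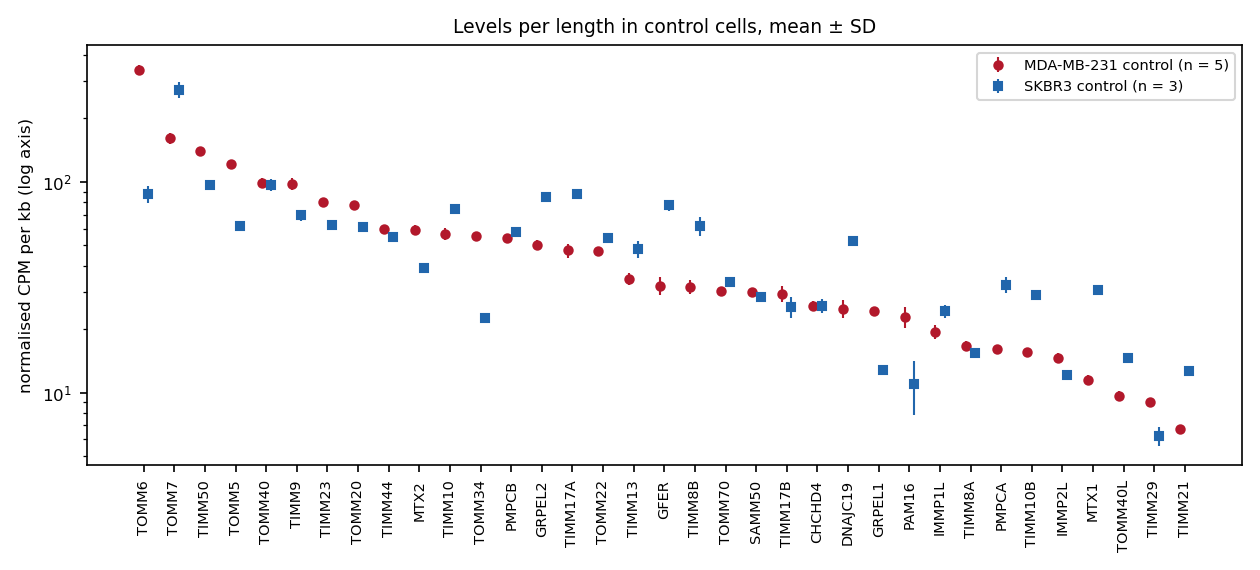
Level per kb of the median coding transcript in control cells (log axis), mean ± SD, MDA-MB-231 (red, n = 5) and SKBR3 (blue, n = 3), ordered by the MDA-MB-231 mean; TIMM22 is not drawn. TOMM6, TOMM5 and TOMM34 lie higher in MDA-MB-231, and GFER, DNAJC19, PMPCA and MTX1 higher in SKBR3.

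Among TOM, TOMM34 and SAM the gaps went both ways. TOMM6 had 219, 201, 219, 194 and 217 CPM in control MDA-MB-231 cells, against 59.7, 50.2 and 52.2 CPM in control SKBR3 cells, 1.96 ± 0.060 higher on the log2 scale. AL365205.1 held 3.0% to 4.70% of their joint counts in MDA-MB-231 controls, against 20.7% to 24.5% in SKBR3 controls. TOMM5 had 89.9, 93.6, 95.1, 91.8 and 98.2 CPM in control MDA-MB-231 cells, against 49.4, 46.5 and 46.7 CPM in control SKBR3 cells (0.98). TOMM34 had 118, 117, 117, 106 and 112 CPM in control MDA-MB-231 cells, against 45.5, 47.4 and 46.1 CPM in control SKBR3 cells (1.30), and no SKBR3 library reached the MDA-MB-231 range for any of the 3. TOMM7 went the other way with 79.0, 75.4, 81.3, 70.7 and 83.1 CPM in control MDA-MB-231 cells, against 145, 129.6 and 123 CPM in control SKBR3 cells (-0.77). TOMM40L had 25.9, 27.3, 27.5, 24.6 and 25.4 CPM in control MDA-MB-231 cells, against 40.3, 38.7 and 40.1 CPM in control SKBR3 cells (-0.60). Both were lower in each MDA-MB-231 library than in any of SKBR3. The metaxins were opposed, without overlap: MTX1 had 17.9, 16.2, 15.7, 16.8 and 16.4 CPM in control MDA-MB-231 cells, against 44.3, 42.4 and 46.6 CPM in control SKBR3 cells (-1.42). MTX2 had 46.4, 50.9, 45.2, 48.3 and 51.5 CPM in control MDA-MB-231 cells, against 32.7, 30.7 and 31.6 CPM in control SKBR3 cells (0.61).

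In the channel, TIMM17A had 71.9, 75.8, 81.0, 76.2 and 87.6 CPM in control MDA-MB-231 cells, against 151, 141 and 144 CPM in control SKBR3 cells (-0.89). TIMM21 had 17.2, 16.1, 16.4, 16.3 and 18.3 CPM in control MDA-MB-231 cells, against 33.4, 29.9 and 32.8 CPM in control SKBR3 cells (-0.93). TIMM50 had 110.4, 112, 112, 103 and 109 CPM in control MDA-MB-231 cells, against 75.9, 71.0 and 78.4 CPM in control SKBR3 cells (0.54), so the first 2 were lower and the receptor higher in MDA-MB-231. Motor genes also went both ways. GRPEL1 had 66.4, 69.6, 68.4, 68 and 65.6 CPM in control MDA-MB-231 cells, against 34.6, 35.1 and 36.9 CPM in control SKBR3 cells (0.92). GRPEL2 had 49.0, 48.6, 49.3, 51.6 and 54.9 CPM in control MDA-MB-231 cells, against 87.2, 83.9 and 83.5 CPM in control SKBR3 cells (-0.74). GRPEL1 was thus the higher and GRPEL2 the lower of the exchange factors in MDA-MB-231 relative to SKBR3. DNAJC19 had 17.2, 17.9, 18.8, 21.3 and 20.9 CPM in control MDA-MB-231 cells, against 41.9, 39.3 and 40.1 CPM in control SKBR3 cells (-1.07). PAM16 had 14.8, 13.5, 13.4, 10.9 and 12.3 CPM in control MDA-MB-231 cells, against 8.0, 4.43 and 6.24 CPM in control SKBR3 cells (1.04). These too stood apart without overlap.

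In TIM22 and the small TIMs 4 of 8 members were lower, 2 higher and 2 did not pass, a share of lower calls near that of all genes. TIMM8B had 25.1, 24.0, 26.0, 24.5 and 29.2 CPM in control MDA-MB-231 cells, against 55.6, 49.2 and 45.4 CPM in control SKBR3 cells (-0.95). TIMM10B had 27.4, 27.3, 27.7, 29.5 and 29.9 CPM in control MDA-MB-231 cells, against 54.1, 50.3 and 54.4 CPM in control SKBR3 cells (-0.90). TIMM9 had 52.3, 55.2, 56.6, 61.5 and 61.3 CPM in control MDA-MB-231 cells, against 40.2, 43.4 and 38.5 CPM in control SKBR3 cells and was higher (0.50), as was TIMM29. TIMM29 had 13, 13.6, 12.8, 12.2 and 12.3 CPM in control MDA-MB-231 cells, against 8.91, 7.88 and 9.71 CPM in control SKBR3 cells (0.52). The oxidase GFER and the peptidase subunit PMPCA were lower. GFER had 16.7, 17.6, 16.7, 13.5 and 16.1 CPM in control MDA-MB-231 cells, against 38.0, 36.9 and 41.2 CPM in control SKBR3 cells (-1.27). PMPCA had 37.3, 33.0, 35.4, 34.8 and 34.3 CPM in control MDA-MB-231 cells, against 68.1, 66.0 and 77.6 CPM in control SKBR3 cells (-1.02). All groups in these sentences were apart. Smaller called differences were those of TOMM20 (0.36), TIMM23 (0.36), IMMP2L (0.27), TIMM17B (0.19) and TIMM44 (0.12), higher, and TIMM13 (-0.48), TIMM10 (-0.40), IMMP1L (-0.31), TOMM22 (-0.20), TOMM70 (-0.14) and PMPCB (-0.10), lower. TIMM44 lost its call without MDA-MB-231 control 1, 3, 4 or 5 or SKBR3 control 1 or 2, TIMM17B without MDA-MB-231 control 1, 3 or 5 or SKBR3 control 1 or 2, and PMPCB without SKBR3 control 1 or 3. Without SKBR3 control 3 the counts were 15 higher and 16 lower. TOMM40, SAMM50, TIMM8A, CHCHD4 and TIMM22 did not pass.

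A second list held 34 other genes of import and of its surroundings (chaperones, insertases, the MICOS complex). In MDA-MB-231 17 of 32 tested fell and 6 rose, or 53.1% and 18.8%, against 27.6% lower and 29.9% higher among all genes, and the median was -0.12. Some of these calls were lost when a library was left out, with adjusted p-values of 0.0519 to 0.148. They were the falls of MTCH1, DNAJC11 and CHCHD3 and the rise of MICOS13. That of CHCHD3 was lost without any 1 control or MitoQ 1, 3 or 4. The largest falls were in HSPA8, the cytosolic Hsp70 that delivers precursors (-0.82 ± 0.044), its co-chaperone DNAJA1 (-0.69 ± 0.043) and ROMO1, a small inner membrane protein (-0.53 ± 0.060). HSPA8 is uncertain, with 21.5% shared stretches. The largest rises were in DNLZ, a zinc-finger partner of the matrix Hsp70 (0.74 ± 0.10; uncertain, with 24.2% shared stretches), MTX3, a metaxin (0.62 ± 0.073), and BCS1L, a complex III assembly factor (0.34 ± 0.054). In SKBR3 10 of 33 fell and 2 rose, or 30.3% and 6.06%, against 14.1% lower and 13.8% higher among all genes. The largest falls were in the MICOS genes MICOS10 (-0.53 ± 0.057; uncertain, 21.5%) and APOO (-0.40 ± 0.10) and in MAIP1, a matrix protein (-0.28 ± 0.083; uncertain, 25.4%). The rises were in BAG6, a cytosolic chaperone (0.81 ± 0.17) and PINK1, a kinase that is degraded while import works (0.19 ± 0.068). PINK1 is uncertain, with 40.6% shared stretches, mostly with PINK1-AS. Of these 5 SKBR3 calls the one that held without any 1 library was MICOS10. APOO lost its call without MitoQ 2, MAIP1 without MitoQ 1 or 2 or control 1 or 3, BAG6 without any 1 control and PINK1 without any 1 MitoQ library or control 1 or 2, with adjusted p-values of 0.0523 to 0.145. BAG6 was at only 0.107 ± 0.195 CPM in MDA-MB-231 controls and 21.0 ± 2.04 CPM in SKBR3 controls (SD, n = 5 and 3). Whether counts of BAG6 were assigned to another gene row was not tested, and its gap and its rise are given with that limit.

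The interaction passed for 8 of 33 lower and 4 higher in this second list, or 24.2% and 12.1%, near the 19.1% lower and 14.9% higher among all genes. It was lowest for HSPA8 (-0.77 ± 0.066), DNAJA1 (-0.63 ± 0.063) and ROMO1 (-0.59 ± 0.12) and highest for MTX3 (0.81 ± 0.11), BCS1L (0.51 ± 0.081) and HSPA9 (0.40 ± 0.069). HSPA8 is uncertain, as above. HSPA9, the matrix Hsp70 at the centre of the import motor, averaged 539 ± 35 CPM with MitoQ and 427 ± 16.6 CPM in controls of MDA-MB-231 (SD, n = 5 each), a rise of 0.34 ± 0.049 (adjusted p 8.39e-06). In SKBR3 it averaged 681 ± 14.4 CPM with MitoQ and 736 ± 8.52 CPM in controls (SD, n = 3 each), a fall of 0.11 ± 0.036 (adjusted p 0.0316) that lost its call without MitoQ 1 or 2 or any 1 control (adjusted p 0.0558 to 0.245). MTX3 had a rise in MDA-MB-231 and a fall of 0.24 ± 0.057 in SKBR3 (adjusted p 0.00603), lost without SKBR3 MitoQ 1 (adjusted p 0.0505). The interaction calls of HSPA9 and MTX3 held without any 1 library. Between control cells 17 of 33 were higher and 12 lower in MDA-MB-231, or 51.5% and 36.4%, against 44.4% higher and 42% lower among all genes. The largest gaps upward were in CHCHD3 (1.93), MTCH1 (1.76) and HSP90AA1 (1.45). Downward they were in APOOL (-1.37), DNAJC11 (-1.05) and BAG6, whose values and their limit are above. HSP90AA1 and DNAJC11 are uncertain, with 29% and 27% shared stretches.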

How the data were processed

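RNA was sequenced from 16 libraries of human breast cancer cell lines. The deposited table holds expected counts: whole-number estimated counts per gene, made by the authors with Salmon and edgeR (per the submitters' processing notes, which name GRCh38). How transcripts were summed to genes, the rounding, the strand setting and the versions are not given in the sources used here. Of 35106 rows 8866 had no count, and 35003 matched GENCODE release 29 by ID; shares of 31-base stretches found in other genes' transcripts come from that release, and a share of at least 20% is called uncertain.

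The test was the quasi-likelihood F test of edgeR 4.0.16 (R 4.3.3) after its filterByExpr filter and TMM scaling ( two-sided, robust, Benjamini-Hochberg over all genes, threshold 0.05). MitoQ was compared with control in each line by its own fit, the lines' responses by an interaction over 16 libraries, and the lines by their controls. Normalised CPM differs slightly between comparisons. Pair ratios added 0.5 to each count and used an exact permutation test over libraries. The depth was 14723152 to 29294865 counts per library. Where the replicates came from was not given, so p-values measure the spread between libraries, which may be technical. Replicate pairs of a group all differed by more than sampling noise.

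Alternatives were DESeq2 1.42.0, limma 3.58.1 voom with quality weights, other size factors and filters, a threshold of 0.01, a 1.2-fold test, no mitochondrially encoded genes, a block by replicate number, all libraries in a single fit, and each library left out. The edgeR test was also run on simulated counts. They used the mean of each gene over all libraries of a comparison and the dispersions edgeR estimated, with a small share of genes changed. Such counts follow the model of the test, so the run does not show how the test fares where data depart from that model. Nor does the run show how scaling fares where most genes change. In the data 57.5% of genes passed in MDA-MB-231 and 86.5% between controls. Per-library values are given for members called with a change of at least 0.5 (log2), or the 8 largest, and for pairs described; of the second list the 3 largest per direction are named. TIMM44 in MDA-MB-231 and the within-line values of HSPA9 and MTX3 were chosen after they had been seen. The members and lists were chosen with earlier results of these data known. Promoter sequences come from RefSeq (GRCh38.p14).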

Additional observations from a re-analysis of the deposited data

Results flagged for a closer look

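In 72 groups of 5 MDA-MB-231 libraries, 1 library lay apart from the other 4 of its group for 3 members; chance alone marks about 1 in 20 groups. TIMM9 was at 60.4 CPM in MitoQ replicate 2 and at 50.0 to 52.1 CPM in the other MitoQ libraries. IMMP2L was at 13.5 CPM in control replicate 5 and at 12.0 to 12.1 CPM in the other controls. TIMM22 was at 28.9 CPM in control replicate 2 and at 0.0353 to 0.886 CPM in the other controls.

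For 16 members the change with MitoQ differed between the lines in the interaction test. The MDA-MB-231 change minus that of SKBR3 was below 0, on the log2 scale, for PAM16 (-0.58), TIMM10 (-0.50), TOMM6 (-0.45), TIMM21 (-0.42), IMMP1L (-0.40), TOMM40 (-0.38), TIMM13 (-0.36), TOMM22 (-0.34), TOMM7 (-0.34), TOMM40L (-0.33), TIMM50 (-0.24), PMPCA (-0.23) and SAMM50 (-0.22). It was above 0 for TIMM44 (0.34), IMMP2L (0.32) and MTX2 (0.27).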

How the results depend on the processing

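Counts of members past the threshold held within 1.5 times in all alternatives but these. In MDA-MB-231 the test against a 1.2-fold change left 2 higher and 12 lower. In SKBR3 9 were lower at an adjusted p under 0.01, 0 against a 1.2-fold change and 10 when all 16 libraries shared 1 fit. In the interaction the members higher were 1 at an adjusted p under 0.01, 6 with DESeq2, with its size factors alone, with a filter at 1 CPM and with mitochondrially encoded genes left out, 9 with plain totals (and 8 lower), and 0 against a 1.2-fold change (and 1 lower). The cause was not tested. Leaving out 1 library at a time gave, in MDA-MB-231, 19 to 20 lower and 5 to 6 higher, in SKBR3 10 to 15 lower and 0 to 1 higher (PAM16, without control replicate 1), in the interaction 10 to 16 lower and 2 to 5 higher (5 without MDA-MB-231 control 5 or MitoQ 1), between controls 12 to 15 higher and 16 to 17 lower, and 10 changed ratios each time. Same-numbered MitoQ and control libraries did not deviate together (no correlation of deviations over 0.1). Groups this small cannot exclude a pairing by number. With a replicate block the members counted 5 higher and 19 lower in MDA-MB-231, 0 and 16 in SKBR3, and 3 and 11 in the interaction. Among all genes the block took the calls from 8805 to 8363 in MDA-MB-231, from 4202 to 4758 in SKBR3 and from 5823 to 5416 in the interaction.

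Apart from TIMM22, each member had at least 67 counts in every library, the least being PAM16 in SKBR3 control replicate 2, so low counts limit PAM16 most. No called member changed sign. Members that did not pass did: in MDA-MB-231 with plain totals TIMM22 (0.053), TIMM29 (0.0089), TIMM10B (0.059) and GFER (0.033); with voom TIMM22 (1.83), TIMM8A (-0.046) and CHCHD4 (-0.033); at 1 CPM TIMM10B (0.0036); with the block TIMM22 (1.05). In SKBR3 they were GRPEL2 with plain totals (0.0057) and no filter (0.0063), TIMM50 (0.0039) and TIMM29 (0.026) with voom, and in the single fit TOMM7 (0.0056), TIMM50 (0.0089), GRPEL2 (0.016) and TIMM29 (0.00030). With a library left out the log2 change ran, in MDA-MB-231, over -0.71 to 3.72 for TIMM22, -0.089 to 0.029 for GFER, -0.015 to 0.025 for TIMM10B, -0.012 to 0.049 for CHCHD4 and -0.036 to 0.062 for TIMM8A. In SKBR3 it ran over -0.059 to 0.058 for TOMM7, -0.048 to 0.050 for GRPEL2, -0.11 to 0.041 for TIMM17B, -0.027 to 0.030 for TIMM50, -0.065 to 0.071 for TIMM29, -0.12 to 0.00025 for PMPCA, -0.11 to 0.011 for TOMM34 and -0.11 to 0.032 for TIMM10, and the PMPCA to PMPCB ratio over -0.0045 to 0.12.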
